A study of Homo sapiens with 38 samples.

Results

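The 4 libraries described here profiled H3K27me3 with one antibody, CST-9733 at 1:100, while the number of PCR cycles and the way of recovering the DNA were varied. They are the 4 of 38 libraries of the series that carry this mark at 13 or 11 cycles, 1 library for each combination of cycle number with column-based or SDS-based extraction. All were made by CUT&Tag, in which a tethered transposase cuts and tags the chromatin that an antibody has bound, in K562 cells, an established human leukaemia line with erythroid features, without the deacetylase inhibitor trichostatin A. In the column procedure the tagged DNA was digested with proteinase K and purified over a spin column, and in the SDS procedure it was released from the beads in a dilute SDS buffer, quenched and amplified directly. The authors varied the cycle number to learn whether amplification adds to the duplication of reads, and compared the extractions alongside. Each condition had 1 library and the labels give no replicate numbers, so no spread within a condition could be measured. A comparison of cycle numbers or of extractions set 2 libraries against 2, and the exact permutation test over the 6 ways of choosing 2 of 4 could not give a two-sided p below 0.333.

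H3K27me3 is the mark that Polycomb repressive complex 2 places on histone H3. It lies over silent developmental genes, often in domains much wider than a single promoter, and it is largely exclusive of H3K27ac, which marks active promoters and enhancers on the same lysine. In a blood-derived line it is known from genes of other lineages, such as those encoding homeodomain factors, signalling ligands and neuronal channels. The SEACR lists analysed here give each peak its position on hg19, its total signal (fragment coverage summed over its bases) and its maximum coverage. They were called after the authors reduced the libraries to one shared number of read pairs and removed duplicates. How many unique fragments stood behind each list is not stated in the files, and cycle number, extraction and unique depth cannot be told apart. The study does report total fragments, unique fragments and duplication for these libraries at their original depth, before the reduction. In that report the column library with fewer cycles was the lowest of these libraries in each of those measures. Whether this bears on its list was not tested. Coverage was thin. The maximum coverage of a peak had a median of 3, 4, 3 and 3 fragments in the 13-cycle column, 13-cycle SDS, 11-cycle column and 11-cycle SDS libraries.

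The list of the 13-cycle column library held 69275 peaks over 54.5 Mb of chromosomes 1 to 22, X and Y. That of the 13-cycle SDS library held 77684 peaks over 63.3 Mb, that of the 11-cycle column library 73744 peaks over 57.2 Mb, and that of the 11-cycle SDS library 65339 peaks over 46.4 Mb. The largest and the smallest list therefore both came from SDS extraction. Peaks were narrow for a domain mark, with median widths of 638, 649, 611 and 595 bp in the same order. Those at least 5 kb wide numbered 123 and 177 in the 13-cycle libraries (column and SDS) and 166 and 68 in the 11-cycle libraries. The 11-cycle SDS list also had the shortest upper tail, with a widest peak of 18615 bp against 47890, 33878 and 33010 bp in the 13-cycle column, 13-cycle SDS and 11-cycle column lists.

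**Figure D1:**
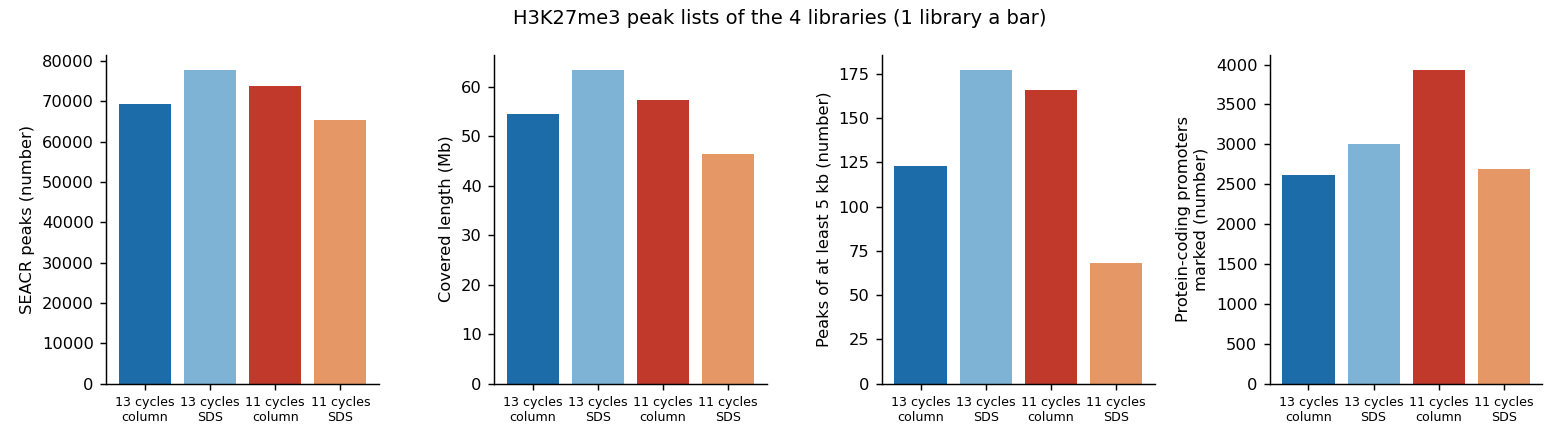
Number of SEACR peaks, covered length (Mb), number of peaks at least 5 kb wide and number of protein-coding promoters marked (vertical axes) in each H3K27me3 library (1 bar a library, 13 cycles left of 11, column left of SDS). The 11-cycle SDS library has the fewest peaks (65339) and the least covered length (46.4 Mb), and the 11-cycle column library marks the most promoters (3928).

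The lists at 13 cycles held 73480 peaks on average and those at 11 cycles 69542, a mean log2 ratio of 0.08. The ratio of 13 over 11 cycles was -0.09 with column and 0.25 with SDS extraction, so the 2 extractions did not move the same way (exact two-sided permutation test, p = 0.667). Without the 13-cycle SDS library the mean was -0.0029, and without the 11-cycle SDS library -0.01. Covered length showed the same split, with -0.07 in column and 0.45 in SDS libraries. Median width was the one of these measures in which both 13-cycle libraries lay above both 11-cycle libraries, by 0.09 on the log2 scale (p = 0.333 in the exact permutation test, the smallest it allows). Between the extractions the lists were of nearly one size, 71510 peaks on average with column and 71512 with SDS. That equality was an average over opposite values, -0.17 for column over SDS at 13 cycles and 0.17 at 11 cycles (p = 1.00, exact permutation test). Without the 11-cycle column library the mean over both was -0.04, and without the 11-cycle SDS library -0.12. Column over SDS was 0.04 in covered length (-0.18 without the 11-cycle SDS library) and 0.01 in median width (-0.02 without the 13-cycle column and -0.06 without the 11-cycle SDS library).

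Merging the 4 lists gave 135109 regions, where peaks sharing at least 1 bp were joined. Of these, 16199 (12%) were called in all 4 lists, 14343 in 3, 25290 in 2 and 79277 (58.7%) in 1. The shared regions were wide and the private ones narrow. Median width was 2147 bp for regions of all 4 lists, 1207 bp for 3, 849 bp for 2 and 551 bp for 1. The series also holds a pair of H3K27me3 libraries with the same antibody, made at 15 cycles with SDS extraction, whose lists were not downsampled. They served as the benchmark, and 52634 of their merged regions were called in both. Regions of all 4 lists lay on those in 99.6% of cases (95% exact binomial interval 99.5% to 99.7%, counting error only), regions of 3 lists in 96.7%, of 2 in 86.9% and of 1 in 58.5% (58.2% to 58.9%). A merged region is wider the more lists it joins, and a wider region can overlap more easily.

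**Figure D2:**
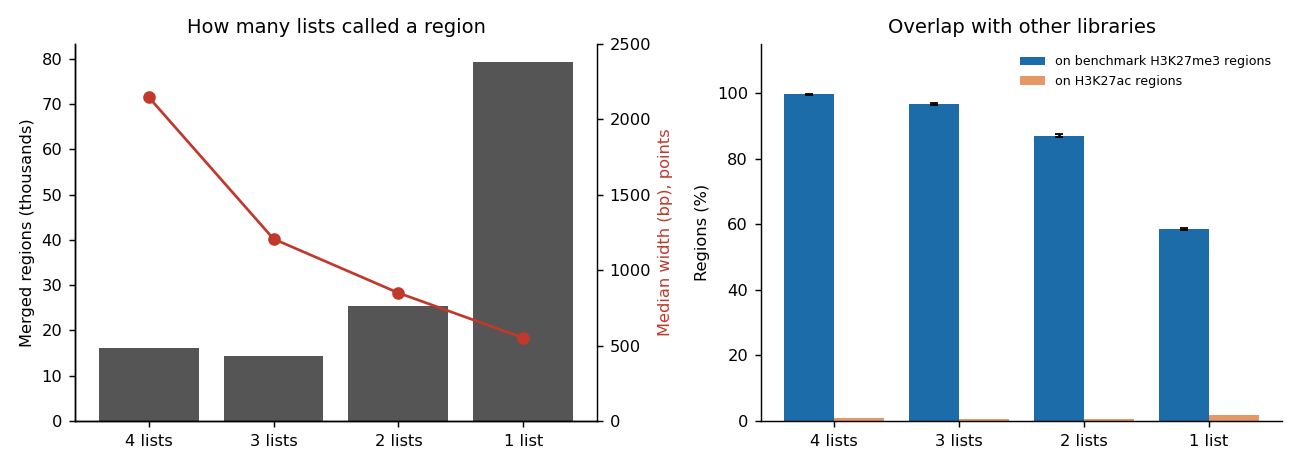
Left, number of merged regions (bars, in units of 1000) and their median width (points, bp) by the number of lists that called them. Right, share of those regions on H3K27me3 regions called in both benchmark libraries and on H3K27ac regions, with 95% exact binomial intervals on the benchmark bars. Regions of all 4 lists have a median of 2147 bp and lie on benchmark regions in 99.6%, regions of 1 list have 551 bp and 58.5%.

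Sharing a cycle number or an extraction did not order the pairs of lists. The bases shared by a pair, as a percentage of the bases in either, were 27.2% for both 13-cycle and 24.5% for both 11-cycle libraries, 26.5% for both column and 23.6% for both SDS libraries. The pairs that shared neither condition gave the highest and the lowest value, 28.2% for the 13-cycle SDS with the 11-cycle column library and 22.8% for the 13-cycle column with the 11-cycle SDS library. The former pair also joined the lists of most covered length (63.3 and 57.2 Mb), and the latter those of least (54.5 and 46.4 Mb). The part of list size in the sharing between pairs was not tested. Regions called in both libraries of one side and in neither of the other made up 2.67% to 3.87% of all merged regions. There were 5235 (3.87%) in both 13-cycle and neither 11-cycle library, and 3613 (2.67%) the other way round. Both column and neither SDS library called 3957 (2.93%), and 3942 (2.92%) were the other way round. The pairs sharing neither condition had both more and fewer, 5633 (4.17%) for 13-cycle SDS with 11-cycle column and 2910 (2.15%) for 13-cycle column with 11-cycle SDS. Among the regions of all 4 lists, the signal of both 13-cycle libraries lay above that of both 11-cycle libraries in 3010 (18.6%) and below it in 2567 (15.8%). Column lay above SDS in 2378 (14.7%) and below it in 2820 (17.4%). The signal was compared as deposited, with no scaling between libraries. In a random order of the 4 libraries, each of the 6 ways of choosing the higher 2 would be equally likely. All of these shares lay near that level.

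How strongly a peak was covered went with whether other lists held it. Peaks with a maximum of 1 or 2 fragments overlapped a peak of each of the other lists in 7.92%, 5.70%, 6.90% and 12.1% of cases in the 13-cycle column, 13-cycle SDS, 11-cycle column and 11-cycle SDS libraries, and lay on benchmark regions in 68.0% (11-cycle column) to 70% (13-cycle column) of cases. For peaks reaching 10 fragments or more the first share was 97.5%, 95.7%, 95.9% and 96.7%, but such peaks made up 1.23%, 1.48%, 1.66% and 0.698% of the lists. Peaks with a maximum of 3 or fewer made up 56.4%, 45.7%, 59.4% and 68.8%.

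Wide benchmark domains were nearly all hit under every condition, and narrow ones in a minority of cases. A hit needs 1 shared bp, so a wider region is hit more easily. Of the 1149 benchmark regions at least 20 kb wide, the libraries hit 100%, 99.9%, 100% and 100%, and 1148 were hit in all 4. Of the 17843 regions 1 to 2 kb wide they hit 22.8% and 26.8% at 13 cycles (column and SDS) and 23.2% and 21.2% at 11 cycles, and 7509 of them were hit in none. A wide domain appeared as a string of separate peaks. The median domain of at least 20 kb was broken into 11.0 peaks in each of the 13-cycle column, 13-cycle SDS and 11-cycle column lists and into 10.0 in the 11-cycle SDS list, which covered a median of 37.2%, 43.2%, 38.8% and 28.5% of it. The number of peaks in such domains was therefore nearly alike while the covered share was lowest in the 11-cycle SDS library.

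**Figure D3:**
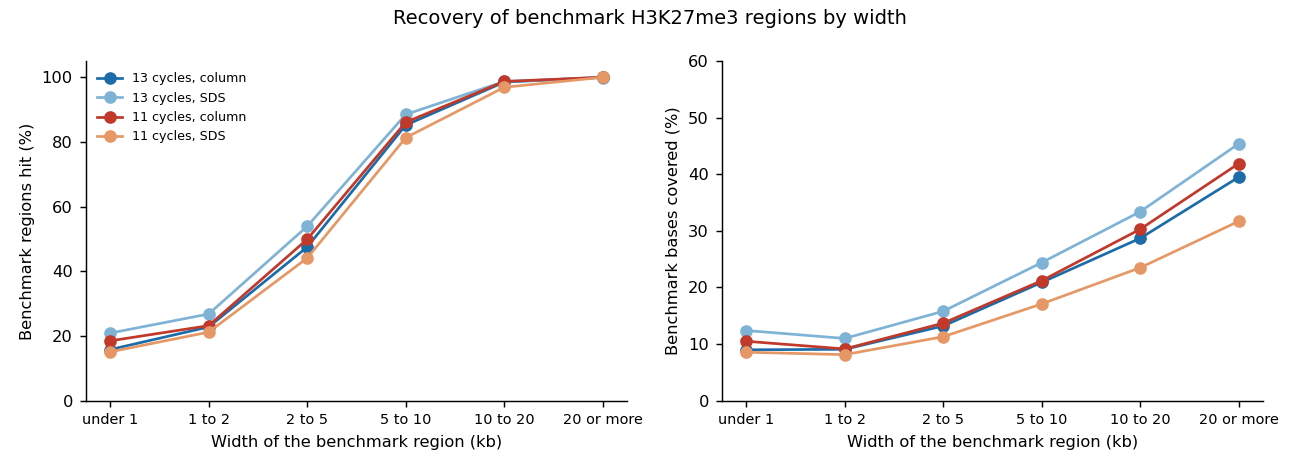
Share of benchmark H3K27me3 regions hit by at least 1 peak (left, %) and share of their bases covered (right, %), by width of the benchmark region (kb), with 1 line a library. Under 2 kb at most 26.8% are hit in any library, and from 20 kb nearly all are hit, with 31.7% to 45.4% of bases covered.

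The widest regions of all 4 lists lay near a pair of genes that define this cell line. K562 is known to carry the BCR-ABL1 fusion of chronic myeloid leukaemia in several copies. Of the 10 widest regions called in all 4 lists, 6 began or ended within 500 kb of ABL1 on chromosome 9 or BCR on chromosome 22. The widest, at chr22:23407768-23472595 (hg19), spanned 64828 bp over GNAZ, which encodes a G protein alpha subunit, and lay 49.3 kb from BCR. Its peaks covered 92.1% and 95.7% of it in the 13-cycle libraries (column and SDS) and 94.2% and 89.1% in the 11-cycle libraries. The next, at chr9:133769870-133825541, spanned 55672 bp over FIBCD1, lay 6.81 kb from ABL1, and reached a maximum of 56 and 65 fragments at 13 cycles and 70 and 42 at 11 cycles. Peaks covered LAMC3, which encodes a laminin chain of the basement membrane and lies in the same part of chromosome 9, by 92.2% and 95% at 13 cycles and 89.8% and 88.7% at 11 cycles. These values were high in every library, against the typical maximum of 3 or 4 fragments. Copy number was not measured here and its part in these levels was not tested. Of the remaining regions with the highest mean signal, several held multicopy genes (REXO1L1, FAM90A, TAF11L) or the end of a chromosome arm, where reads may belong to more than one place in the genome.

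Promoters were then taken as the 1.5 kb on either side of the start of each of the 20163 protein-coding genes, and a promoter was called marked where a peak shared at least 1 bp with it. The 13-cycle libraries marked 2619 (13.0%, column) and 3000 (14.9%, SDS) and the 11-cycle libraries 3928 (19.5%, column) and 2685 (13.3%, SDS). All 4 lists marked 1577 promoters (7.82%), and 3747 (18.6%) were marked in 1 to 3 lists. Of the promoters of all 4 lists, 1575 were marked in both benchmark libraries too. The 11-cycle column library stood apart in number, and 1324 promoters (6.57% of all protein-coding promoters) were marked in it alone, against 240, 391 and 328 marked in the 13-cycle column, 13-cycle SDS or 11-cycle SDS library alone. On the log2 scale, 13 over 11 cycles averaged -0.21, made of -0.58 in column and 0.16 in SDS libraries (p = 0.667, exact permutation test), and without the 11-cycle column library it was 0.06. For column over SDS it was 0.18, made of -0.20 at 13 and 0.55 at 11 cycles (p = 1.00, exact permutation test), and -0.12 without that library.

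Few promoters followed the cycle number or the extraction. Both 13-cycle and neither 11-cycle library marked 118 (0.585%), and both 11-cycle and neither 13-cycle library 129 (0.640%). Both column and neither SDS library marked 111 (0.551%), and both SDS and neither column library 118 (0.585%). Of the pairs sharing neither condition, 13-cycle SDS with 11-cycle column alone marked 208, and 13-cycle column with 11-cycle SDS alone marked 67. The former pair joined the lists with the most marked promoters, and the latter those with the fewest. The promoters described next had maxima of 3 to 6 fragments. Peaks at promoters of all 4 lists had median maxima of 4, 5, 4 and 4 in the 13-cycle column, 13-cycle SDS, 11-cycle column and 11-cycle SDS libraries. USP17L10, marked in both 11-cycle libraries and neither 13-cycle library, reached 14 (column) and 3 (SDS). CPLX3, encoding a complexin of synaptic vesicle release, was marked in both 13-cycle libraries with maxima of 6 (column) and 5 (SDS) fragments and had no peak at its promoter at 11 cycles. BARHL2, a neural homeobox gene, had maxima of 3 and 3 at 13 cycles and no promoter peak at 11 cycles, yet peaks elsewhere covered 35.7% (column) and 26.2% (SDS) of the gene at 11 cycles, against 52.2% and 58.9% at 13. In the other direction RXFP3, a relaxin peptide receptor gene, had maxima of 5 and 5 fragments at 11 cycles and no promoter peak at 13. CDK5R2, a neuronal activator of CDK5, had maxima of 4 and 3 fragments in the column libraries (13 and 11 cycles) and none with SDS, and CRB3, encoding a polarity protein of epithelia, had 5 and 3 with SDS (13 and 11 cycles) and none with column. Regions confined to one side were narrow, the widest being 3639 bp in PROM1 (both 13-cycle libraries), 2646 bp near FSTL4 (both 11-cycle), 2660 bp in MCF2L (both column) and 2603 bp in POU2F3 (both SDS). H3K27ac regions, taken as those called in at least 8 of the 16 H3K27ac lists of the same experiment, lay on 16.3% of the promoters of both 11-cycle and neither 13-cycle library, near their 16.4% of all protein-coding promoters, and on 0 of the 118 of both 13-cycle and neither 11-cycle library. Several other genes of these sets (USP17L10, PPIAL4E, PRAMEF22, SCYGR5, SCYGR6) belong to families of near-identical copies and are uncertain for that reason.

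Gene families differed widely in how many of their promoters were marked, in every library. Of 39 HOX cluster genes, which set position along the body axis, 20 had a promoter marked in all 4 lists (51.3%, against 7.82% of all protein-coding promoters), and 24, 23, 24 and 23 were marked in the 13-cycle column, 13-cycle SDS, 11-cycle column and 11-cycle SDS libraries. The clusters differed from each other. All 4 lists marked 8 of 11 HOXA and 8 of 9 HOXD genes, but 3 of 9 HOXC genes and, in HOXB, HOXB13 alone of 10. The other 9 HOXB genes were marked in no list, and 4 of them lay on H3K27ac regions. Peaks covered 57.4% and 58.4% of the HOXD cluster at 13 cycles (column and SDS) and 52.5% and 48.7% at 11 cycles. For the HOXA cluster the values were 44.2% and 47.8% at 13 cycles and 43.5% and 29.9% at 11 cycles. In both clusters the 11-cycle SDS library was the lowest. HOXD4 was covered by 100% and 100% of its length at 13 cycles and 88.8% and 93.0% at 11 cycles. The members marked in 1 to 3 lists numbered 6 of 39, a share near the 18.6% of all protein-coding promoters. HOXA5 lacked a promoter peak in the 13-cycle SDS library, HOXA10 in the 11-cycle column library, and HOXA7 and HOXD10 in the 11-cycle SDS library, while HOXC5 was marked in the 11-cycle column and HOXC6 in the 11-cycle SDS library alone.

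**Figure D4:**
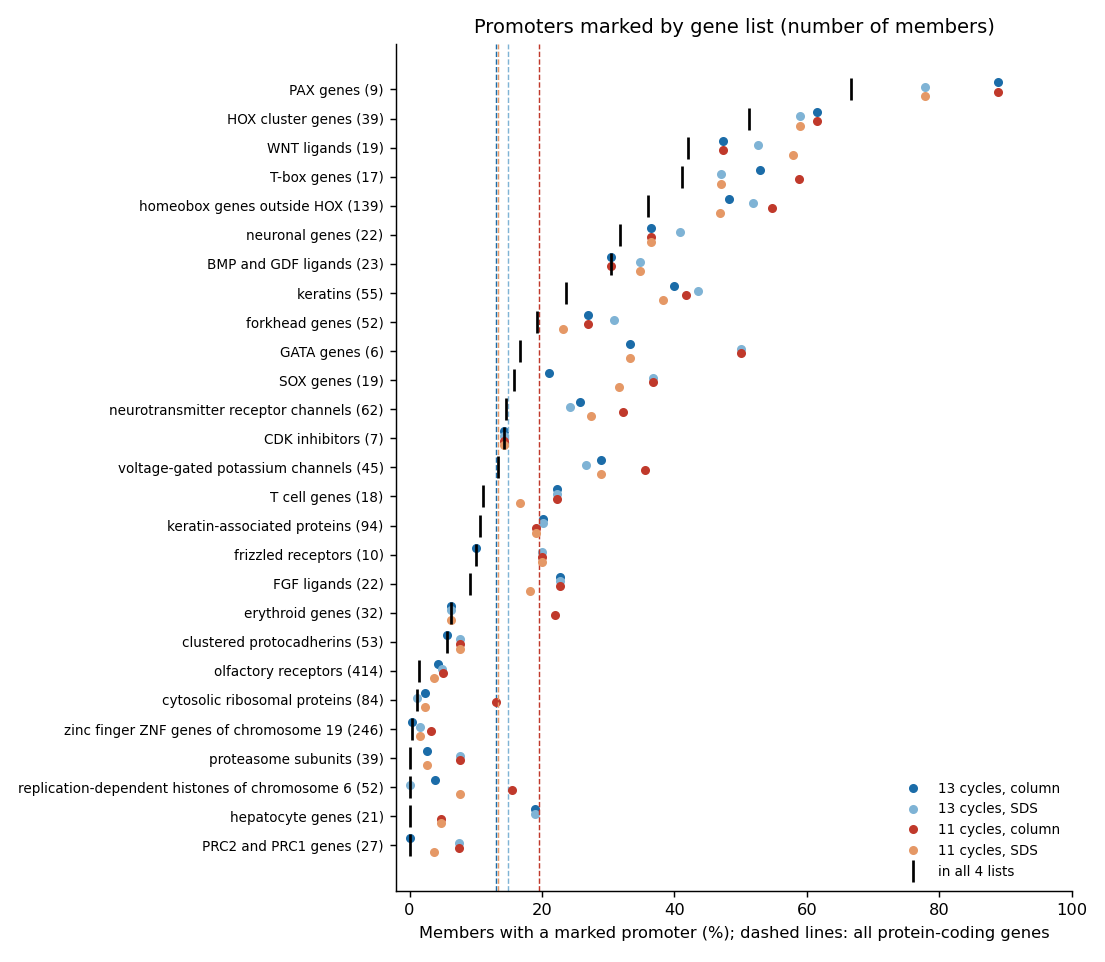
Share of the members of each gene list (number of members in parentheses) whose promoter was marked in each library (dots) and in all 4 lists (black bars), with the share of all protein-coding promoters in each library as dashed lines (13.0%, 14.9%, 19.5% and 13.3% in the order of the legend). PAX, HOX, WNT and T-box genes lie to the right of the lines in every library, ribosomal, proteasome and olfactory receptor genes to the left.

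Homeobox genes outside the HOX clusters followed the same pattern, with 50 of 139 marked in all 4 lists and 53 in none. Of all protein-coding promoters, 73.6% were marked in none. The homeobox counts by library were 67, 72, 76 and 65. NKX2-5, needed for heart formation, was covered by 78.1% and 93.5% at 13 cycles (column and SDS) and 100% and 87.1% at 11 cycles, and EVX1, next to the HOXA cluster, by 96.2% and 93.5% against 95% and 85.7%. Among the PAX genes, which pattern the nervous system, muscle, eye and kidney, 6 of 9 were marked in all 4 lists and PAX9 in none. Of the PAX genes, PAX1 and PAX3 were marked in 3 lists. T-box genes gave 7 of 17 in all 4 lists, with TBXT, the mesoderm factor brachyury, covered by 56.0% and 41.8% at 13 cycles and 44.6% and 46.2% at 11 cycles. Forkhead genes gave 10 of 52 and SOX genes 3 of 19. GATA3, the T cell factor, was marked in all 4 lists with promoter maxima of 7 and 8 at 13 cycles and 11 and 8 fragments at 11 cycles. GATA1, the factor that drives erythroid genes, was marked in none, as were GATA2 and GATA5. GATA4 and GATA6 were marked in 3 lists.

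Signalling genes differed by family, and no test was run between families. WNT ligands were marked in all 4 lists in 8 of 19 cases and BMP and GDF ligands in 7 of 23, but frizzled receptors, which bind WNT proteins, in 1 of 10, and FGF ligands in 2 of 22. As shares these were 42.1%, 30.4%, 10% and 9.09%, beside 7.82% of all protein-coding promoters, so that the frizzled and FGF families lay near the general level. WNT7B was covered by 29.4% and 46.9% at 13 cycles (column and SDS) and by 42.0% and 20.4% at 11 cycles, so its lowest value again came from the 11-cycle SDS library. Neuronal genes gave 7 of 22 in all 4 lists, NEUROG2 and OLIG1 among them. Voltage-gated potassium channels gave 6 of 45 and neurotransmitter receptor channels 9 of 62, or 13.3% and 14.5%. Keratin genes gave 13 of 55 and keratin-associated protein genes 10 of 94, or 23.6% and 10.6%. T cell genes gave 2 of 18 (11.1%), CD6 and CD8B.

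In other gene lists most promoters were unmarked in every library, as were 73.6% of all protein-coding promoters. Of 414 olfactory receptor genes, 6 were marked in all 4 lists (1.45%, against 7.82% of all protein-coding promoters) and 372 in none. Of 53 clustered protocadherin genes, 3 (5.66%) were marked in all 4 lists and 47 in none. The protocadherin genes of all 4 lists were PCDHGC3, PCDHGC4 and PCDHGC5, which lie side by side at the end of the gamma cluster. Of 246 ZNF genes of chromosome 19, 1 (0.407%) was marked in all 4 lists and 235 in none. Of 7 CDK inhibitor genes, CDKN1A, the p53 target p21, was marked in all 4 lists (14.3%) and the other 6 in none. Of 21 hepatocyte genes none was marked in all 4 lists, with 4 and 4 marked at 13 cycles (column and SDS) and 1 and 1 at 11 cycles. Their share was 19% and 19% at 13 cycles, beside 13.0% and 14.9% of all protein-coding promoters, and 4.76% and 4.76% at 11 cycles, beside 19.5% and 13.3%. This was the one list of the 27 in which both 13-cycle counts exceeded both 11-cycle counts by more than 1 gene, with APOB marked in both 13-cycle libraries and neither of the others.

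The 11-cycle column library marked more ribosomal protein, histone and erythroid genes than the other libraries. Of 84 genes for cytosolic ribosomal proteins it marked 11, against 2 and 1 in the 13-cycle column and SDS libraries and 2 in the 11-cycle SDS library. Of 32 erythroid genes it marked 7, against 2 in each other library, and of 52 histone genes of chromosome 6 it marked 8, against 2, 0 and 4. Its shares of 13.1% of ribosomal, 21.9% of erythroid and 15.4% of histone genes lay below or near its 19.5% of all protein-coding promoters, whereas the other libraries' shares of these lists were 0 to 7.69%, below their 13.0% to 14.9%. Proteasome subunit genes did not follow, with 3 of 39 marked in it, against 1 and 3 at 13 cycles (column and SDS) and 1 in the 11-cycle SDS library. The erythroid promoters marked in it alone included those of HBG1 (fetal globin) and of the transcription factors LYL1, NFE2 and TAL1, the last pair chosen after their values were seen. Each of these carried 2 to 4 fragments at its maximum and lay on an H3K27ac region. HBG1 has a near-identical neighbour, HBG2, so its reads are uncertain. The erythroid genes marked in all 4 lists were BCL11A, the repressor of fetal globin, and ANK1.

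This pattern was measured against the 16 H3K27ac lists of the same PCR and extraction experiment, 4 antibodies under the same 4 conditions. The limit of 8 lists for an H3K27ac region was chosen after values had been seen. Such regions lay on 16.4% of protein-coding promoters. Of the promoters marked in the 11-cycle column library alone, 53.8% lay on H3K27ac regions (712 of 1324, 95% exact binomial interval 51.0% to 56.5%). The share was 5.83%, 8.70% and 10.4% for promoters marked in the 13-cycle column, 13-cycle SDS or 11-cycle SDS library alone, and 0.571% for those of all 4 lists. Taken the other way, the 11-cycle column library marked 23.9% of the promoters on H3K27ac regions, against 1.06% and 2.54% in the 13-cycle libraries (column and SDS) and 2.39% in the 11-cycle SDS library. On all other promoters its share was close to the rest, 18.6% against 15.3%, 17.3% and 15.5%. Of the 464 H3K27ac regions called in all 16 lists it hit 57.5% (52.9% to 62.1%), and the other libraries 8.62%, 11.4% and 14.9%. The benchmark libraries, not downsampled, hit 18.5% and 17.7% of them. On promoters off H3K27ac regions the mean log2 ratios became -0.06 for 13 over 11 cycles and 0.05 for column over SDS.

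**Figure D5:**
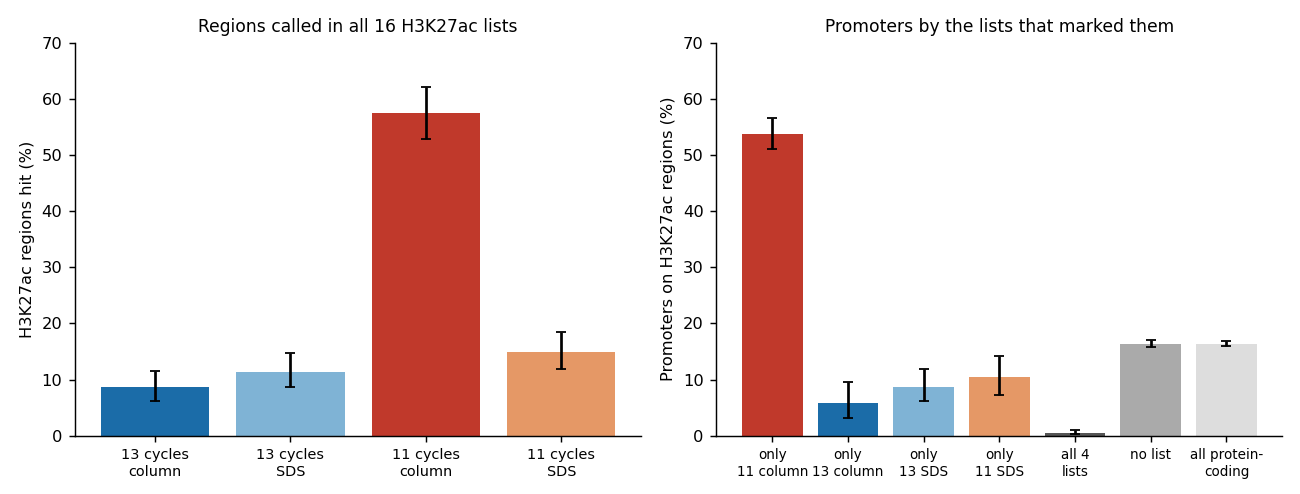
Left, share of the 464 regions called in all 16 H3K27ac lists that each H3K27me3 library hit. Right, share of promoters on H3K27ac regions, by the H3K27me3 lists that marked them, with 95% exact binomial intervals in both. The 11-cycle column library hits 57.5% of the regions, and 53.8% of the promoters it alone marked lie on H3K27ac regions, against 16.4% of all protein-coding promoters.

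The overlap was present with each H3K27ac list. Over the 16 lists taken singly, peaks lay on 29.5% to 63.4% of the promoters that the 11-cycle column library alone marked, and on 8.53% to 25.4% of all protein-coding promoters. The 4 H3K27ac lists made at 11 cycles with column extraction gave 48.0% to 63.4% for the first share and 16.1% to 25.4% for the second. The peaks of the 11-cycle column library at these promoters were small, with a median width of 528 bp and a median maximum of 3 fragments, against 840 bp and 4 fragments for its peaks at promoters of all 4 lists. Both benchmark libraries marked 16.1% of these promoters, 99.9% of those of all 4 lists and 21.3% of all protein-coding promoters. Mean coverage within the peaks called on the mitochondrial genome was also highest in the 11-cycle column library, at 180 fragments. It was 127 and 78.5 in the 13-cycle libraries (column and SDS) and 136 in the 11-cycle SDS library. The lowest coverage was in the 13-cycle SDS library, but the 13-cycle column library hit the smallest share of the regions of all 16 H3K27ac lists. The part of mitochondrial coverage in the overlap was not tested.

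Base composition differed between the same libraries. The mean GC content of peaks was 52.0% and 52.5% at 13 cycles (column and SDS) and 53.3% and 52.4% at 11 cycles. Across regions of all 4 lists, the median log2 ratio of signal of 13 over 11 cycles was 0.31 in the fifth of lowest GC and -0.17 in the fifth of highest GC with column extraction, but -0.11 and 0.04 with SDS. Column over SDS ran from -0.31 to 0.13 over the same GC classes at 11 cycles and from 0.11 to -0.07 at 13. The gradients with GC were therefore the largest in the comparisons that involved the 11-cycle column library, and ran the opposite way in those without it. Promoters marked in that library alone were also richer in CpG than those of all 4 lists, with a median observed over expected ratio of 0.62 against 0.53, where all protein-coding promoters had 0.55.

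The next sequences show promoters of both kinds, with each CG in capitals. They are from RefSeq (GRCh38.p14), run 5′ to 3′ from 250 bases before to 50 after the gene start, and were chosen after the values were seen. PAX7, at chr1:18630596-18630895 on the plus strand, patterns muscle and neural crest, and KCNF1, at chr2:10911684-10911983 on the plus strand, encodes a modifier subunit of potassium channels. Both were marked in all 4 lists, with promoter maxima of 9 and 9 fragments at 13 cycles (column and SDS) and 7 and 7 at 11 cycles for PAX7, and of 6 and 9 against 8 and 7 for KCNF1. They hold 21 and 22 CG.
PAX7: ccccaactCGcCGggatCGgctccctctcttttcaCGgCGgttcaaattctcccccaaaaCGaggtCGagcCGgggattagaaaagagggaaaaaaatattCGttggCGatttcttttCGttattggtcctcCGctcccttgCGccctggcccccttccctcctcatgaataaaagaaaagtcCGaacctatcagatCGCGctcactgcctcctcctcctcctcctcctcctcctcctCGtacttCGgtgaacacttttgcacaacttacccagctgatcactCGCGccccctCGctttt
KCNF1: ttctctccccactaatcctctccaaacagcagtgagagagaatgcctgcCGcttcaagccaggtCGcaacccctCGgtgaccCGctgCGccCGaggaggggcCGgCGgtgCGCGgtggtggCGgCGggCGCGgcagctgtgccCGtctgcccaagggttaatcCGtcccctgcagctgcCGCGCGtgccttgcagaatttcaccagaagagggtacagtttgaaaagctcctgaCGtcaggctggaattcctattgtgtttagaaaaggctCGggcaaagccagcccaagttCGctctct
RPL35, at chr9:124861908-124862207 on the minus strand, encodes a protein of the large ribosomal subunit, and H4C8, at chr6:26285485-26285784 on the minus strand, a histone H4. Their promoters were marked in the 11-cycle column library alone, each with a maximum of 2 fragments, and held an H3K27ac peak in 12 and 11 of the 16 lists. They hold 37 and 16 CG, so that the 2 kinds of promoter overlap in CG number.
RPL35: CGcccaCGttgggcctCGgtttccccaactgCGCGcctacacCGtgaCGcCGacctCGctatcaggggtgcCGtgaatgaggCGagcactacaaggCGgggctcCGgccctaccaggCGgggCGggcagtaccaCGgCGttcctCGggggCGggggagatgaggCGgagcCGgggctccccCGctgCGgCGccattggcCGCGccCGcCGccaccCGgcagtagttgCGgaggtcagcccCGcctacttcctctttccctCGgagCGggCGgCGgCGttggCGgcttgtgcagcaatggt
H4C8: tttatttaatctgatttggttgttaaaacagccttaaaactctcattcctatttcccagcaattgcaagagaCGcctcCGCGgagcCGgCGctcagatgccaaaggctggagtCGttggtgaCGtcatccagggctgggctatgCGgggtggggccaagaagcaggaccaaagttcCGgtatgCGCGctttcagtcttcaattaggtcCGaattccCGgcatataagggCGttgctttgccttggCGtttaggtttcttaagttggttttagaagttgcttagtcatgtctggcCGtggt
Over the promoters found in the table, the median number of CG in this window was 20 for those of all 4 lists (1096 of 1577 found), 25.0 for those of the 11-cycle column library alone (1034 of 1324) and 22 for all protein-coding genes (15318 of 20163). At least 15 CG were present in 58.7%, 80.1% and 66.4% of them.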

How the data were processed

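Only the SEACR lists of the 4 H3K27me3 libraries, of the 2 benchmark H3K27me3 libraries and the 16 H3K27ac libraries were used. Per the labels and the study's methods, the authors used Trim Galore 0.6.6 for trimming, Bowtie2 2.2.9 for alignment (build hg19), Picard 2.6.0 for duplicate removal and SAMtools 1.3.1 with bedtools 2.25.0 for the fragment files. SEACR was run on single libraries without a control. The study gives a threshold of 0.01, raised to 0.1 for H3K27me3. The deposited signal is fragment coverage, as a sum and a maximum per peak, in whole numbers. The wording of the caller's mode in the methods was not settled. No list of blacklisted regions was applied, and peaks on other contigs (318 to 452 a list) were left out. Genes are from GENCODE 44 lifted to hg19.

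Overlaps were computed in Python 3.11.15 with numpy 2.4.6 and pandas 2.3.3, and tested on 20 simulated interval pairs against bedtools 2.31.1. Contrasts used exact two-sided permutation tests on log2 values. Libraries were grouped by title. The libraries and the 27 gene lists were chosen with earlier results of these data known. Named genes are, per list, those marked in all 4 lists with the highest mean covered share, and the first by alphabet among those marked in some or none; genes at the 10 widest and 10 strongest regions of all 4 lists; and, per contrast and direction, the 5 promoters with the largest difference in covered share. Others were named after their values were seen. Alternatives were other peak selections, merging distances, promoter definitions and leaving out each library. Some genes covered by the rule for names are not reported here.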

Additional observations from a re-analysis of the deposited data

Results flagged for a closer look

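In 44 measures over the 4 libraries, 12 had 1 library far from the other 3 relative to the whole range. Chance gives about 1 in 20 for independent continuous measures, a rate that does not apply to this number, since many measures are small counts with ties and 4 of those named next restate the overlap with H3K27ac. In 7 of them it was the 11-cycle column library, which was the highest in each: 67.4% of its peaks lay in genes (66.4% to 66.5% in the others), 2.04% of its peaks lay on H3K27ac regions, it hit 57.5% of the regions of all 16 H3K27ac lists, 20.1% of its marked promoters lay on H3K27ac regions, it marked 23.9% of the promoters on such regions, and it marked 11.0 ribosomal protein genes and 7 erythroid genes. The other 5 were counts in which 1 library differed from the others by 1 gene: 1 frizzled receptor and 3 clustered protocadherins in the 13-cycle column library (lowest), 9 neuronal genes in the 13-cycle SDS library (highest), and 4 FGF ligands and 3 T cell genes in the 11-cycle SDS library (lowest).

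Effects of one condition had opposite signs under the other, with 1 library a condition, and the difference was not tested. Column over SDS on the log2 scale was -0.17 at 13 and 0.17 at 11 cycles for peak number (difference -0.34), -0.21 and 0.30 for covered length (difference -0.52), -0.02 and 0.04 for median width (difference -0.06) and -0.20 and 0.55 for promoters marked (difference -0.74). The same differences hold for 13 over 11 cycles in column against SDS libraries, where peak number, covered length and promoters marked also had opposite signs.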

How the results depend on the processing

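No paired analysis was possible because the labels give these 4 libraries no replicate numbers. Ratios within each extraction and each cycle number stand in the report. Of 107 alternative values, 72 kept their direction or stayed within the counting interval, 15 reversed and 20 moved, and no contrast could pass a threshold with 2 libraries a side. Some of these outcomes were fixed in advance. Taking 50% of each list cannot change the ratios of peak number, and leaving out a list cannot lower the share of promoters marked in all remaining lists. Joining peaks within 1000 bp turned column over SDS to -0.01 in peak number and -0.000081 in median width, and joining within 5000 bp turned it to -0.0040 and -0.10, and 13 over 11 cycles to -0.10 in peak number, while 13 over 11 cycles in median width became 0.47, against 0.09 without joining. Asking for 50% of the promoter window turned 13 over 11 cycles to 0.15 for promoters. Leaving out each library in turn gave, for 13 over 11 cycles, -0.01 to 0.17 in peak number, 0.04 to 0.34 in covered length (0.19 with all 4), 0.07 to 0.11 in median width and -0.49 to 0.06 in promoters, and for column over SDS, -0.12 to 0.13 in peak number, -0.18 to 0.27 in covered length, -0.06 to 0.07 in median width and -0.12 to 0.47 in promoters. The share of regions in all 4 lists (12%) was 13.8% with the 50% of peaks of highest signal, 12.4% at equal list length, 13.0% and 17.2% with peaks joined within 1000 and 5000 bp, and 16% to 18.0% for the 3 remaining lists. The share of promoters in all 4 lists (7.82%) was 5.09% with the 50% of highest signal, 10.0% with 3 kb either side, 12.3% with any transcript start, 1.42% with 50% of the window, 9.30% off H3K27ac regions and 8.44% to 9.05% for the 3 remaining lists. The share of promoters of the 11-cycle column library alone on H3K27ac regions (53.8%) was 47.0% with the 50% of highest signal. It was 73.1% and 11.2% with regions of at least 2 and of all 16 lists. The 16.4% of all protein-coding promoters holds for regions of at least 8 lists. It does not serve for 73.1% and 11.2%, whose general shares are not given. The alternatives on H3K27ac were chosen after seeing the data. The thin coverage limits what the lists can show at narrow regions, and a promoter without a peak is one without enough fragments for a call, not one without the mark.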
